A study of Mus musculus with 9 samples.

Results

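The matrix metalloproteinases and their TIMP inhibitors were followed across tumour and peritoneal macrophages of the mouse. The set holds 7 metalloproteinase genes (Mmp2, Mmp8, Mmp9, Mmp12, Mmp13, Mmp14 and Mmp19) and 3 inhibitor genes (Timp1, Timp2 and Timp3), taken by gene name from the non-control spots of the arrays. These 10 genes are read by 12 of 55681 probes and by 21 of 59305 spots. Mmp12 and Timp2 have a pair of probes each, and the single Mmp9 probe is printed 10 times on every array.

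RNA from 9 samples of C57BL/6J mice was hybridised to Agilent single-colour arrays with Cy3 label, in 3 groups of 3. F4/80high TAMs and F4/80low TAMs are tumour-associated macrophages of a fibrosarcoma, divided by their surface level of F4/80, and PECs are peritoneal exudate cells that served as control macrophages. The labels name no sort marker other than F4/80 and give no treatment, genotype or age. Replicates are described as biological, without a statement that each came from its own animal. The p-values therefore set differences of group means against the spread of these samples only, and part of that spread may be technical. A difference from PECs can belong to the tumour or to the tissue of origin, and these cannot be told apart.

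Matrix metalloproteinases are zinc-dependent enzymes that are made as inactive precursors and cut proteins of the extracellular matrix, cytokines and surface receptors. The collagenases Mmp8 and Mmp13 open fibrillar collagen, the gelatinases Mmp2 and Mmp9 cut denatured and basement membrane collagen, Mmp12 is the elastase of macrophages, and Mmp14 is anchored in the cell membrane, where it cuts collagen and activates Mmp2. TIMPs bind the active site of these enzymes and block them. Macrophages are a known source of several of these proteins in tumours and wounds.

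Levels are log2 intensities relative to the 75th percentile of each array, so a value of 0 is a spot at that percentile, and a gene's level is not comparable with that of another gene. Between 36.1% and 38.3% of spots per array were well above background, and limma tested 16463 genes. A gene entered the test if some group had it well above background on each of its 3 arrays, which 8 of the 10 genes did and Mmp2 and Timp3 did not. All 6 TAM arrays and PEC replicate 1 lie on one slide (slide 1), and PEC replicates 2 and 3 on another, so each difference from PECs is also given for slide 1 alone, where the spread of PECs, with 1 array left, is taken from the TAM arrays. Relative to the mean of the other two PEC arrays, PEC replicate 1 stood at −3.26 for Mmp13, −1.87 for Timp1, −1.62 for Mmp8 and 1.51 for Mmp14 on the log2 scale. All 10 macrophage markers examined were above background on every F4/80high TAM and PEC array, and 9 of them on every F4/80low TAM array, where Mertk was above background on none. Summed, these markers ranged over 1292 to 2021 in F4/80high TAMs, over 548 to 744 in F4/80low TAMs and over 1013 to 1342 in PECs, in units of the 75th percentile. Such sums, here and below, add probes of unlike brightness, are set mainly by the brightest of them and do not measure the share of a cell type. Of the 10 markers, 4 were higher and 1 lower in F4/80high TAMs against PECs, none was higher and 7 were lower in F4/80low TAMs against PECs, and 7 were higher and none lower in F4/80high against F4/80low TAMs. Over all genes tested, 53.1%, 52.0% and 32.7% differed in these comparisons in either direction. Among the macrophage markers, Adgre1 encodes F4/80, by which the TAM subsets were divided, so its direction between them was set by the sort. Its means were 5.94 in F4/80high and 2.89 in F4/80low TAMs. In the same order the means of Csf1r were 8.80 and 8.89, of Itgam 5.36 and 5.38 and of Cd68 3.73 and 4.23. The part of these marker differences in the values below was not tested.

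The F4/80high subset carried transcripts of Mmp13 and Mmp14 above both other groups, the F4/80low subset carried Mmp9 far above both, and PECs carried Mmp12, Timp1 and Timp2 above both TAM subsets. Against PECs, F4/80high TAMs were higher in 3 of the 8 tested genes (Mmp9, Mmp13, Mmp14) and lower in 4 (Mmp8, Mmp12, Timp1, Timp2), where 53.1% of all genes tested passed in either direction, 24.9% higher and 28.2% lower. F4/80low TAMs were higher in 2 (Mmp9, Mmp14) and lower in 4 (Mmp12, Mmp19, Timp1, Timp2), beside 52.0% of all genes, 22.5% higher and 29.4% lower. Between the TAM subsets all 8 tested genes passed, 5 higher and 3 lower in F4/80high TAMs, beside 32.7% of all genes, 18.7% higher and 14.0% lower. The 8 genes were read only where they were bright in at least 1 group, and both PEC comparisons share the same PEC arrays.

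The arrays of the compared groups did not overlap for any of the genes that passed. Among all genes tested, F4/80high TAM arrays lay wholly above the PEC arrays in 31.1% and wholly below in 34.3%, F4/80low TAM arrays above the PEC arrays in 25.8% and below in 33.5%, and F4/80high above F4/80low TAM arrays in 27.3% and below in 19.6%. The median log2 fold change of the 8 genes was −1.31 in F4/80high TAMs against PECs, −0.09 in F4/80low TAMs against PECs and 1.68 in F4/80high against F4/80low TAMs. The corresponding medians over all genes were −0.00, −0.10 and 0.08.

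**Figure D1:**
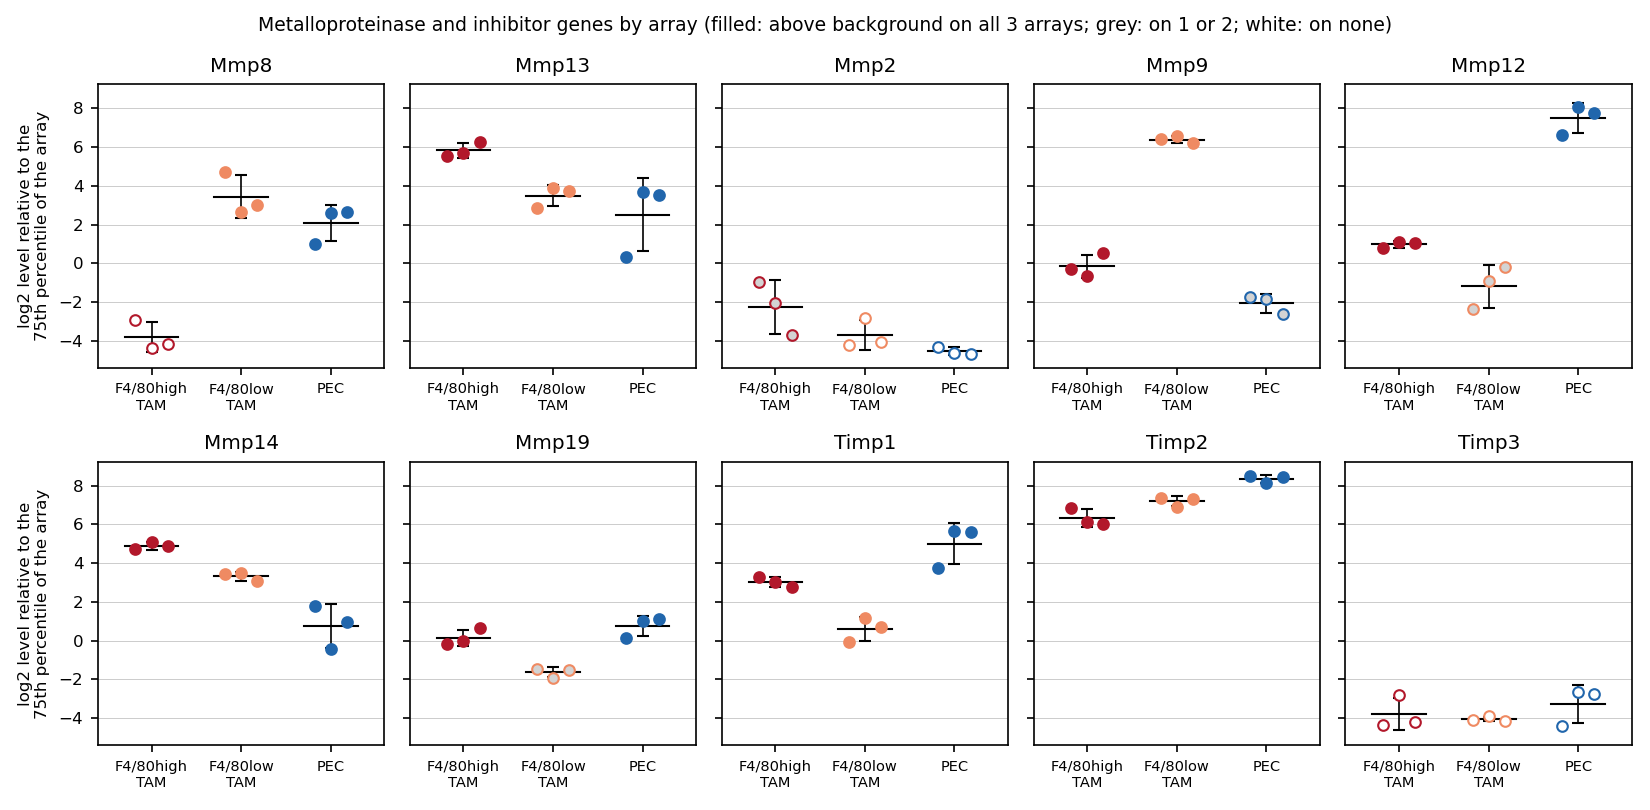
Level of each of the 10 genes on every array (log2 intensity relative to the array's 75th percentile), by group, with the group mean and SD (n = 3 arrays). Filled points mark groups above background on all 3 arrays, grey ones on 1 or 2, and white ones on none. The F4/80low TAM arrays of Mmp9 lie between 6.22 and 6.55, above all other arrays, and the PEC arrays of Mmp12 between 6.60 and 8.06, above all TAM arrays.

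The genes Mmp8, Mmp12 and Mmp13 are neighbours. Their probes lie at chr9:7568238-7568297 for Mmp8, chr9:7352935-7352994 and chr9:7360373-7360432 for Mmp12, and chr9:7282762-7282821 for Mmp13 (mm9, plus strand). With Mmp1a, Mmp1b, Mmp3, Mmp7, Mmp10, Mmp20 and Mmp27 they form a run of 10 metalloproteinase genes whose probes span 415 kilobases, of which 5 were tested. The 5 tested genes did not all move in the same direction. In F4/80high TAMs against PECs, Mmp13 and Mmp10 were higher and Mmp12 lower, as were Mmp8 and Mmp27, which lie next to each other. In F4/80low TAMs against PECs, Mmp10 was higher and Mmp12 and Mmp27 lower, whereas Mmp8 (log2 fold change 1.35) and Mmp13 did not pass. Mmp1a, Mmp1b, Mmp3 and Mmp20 were above background on no array, and Mmp7 on 1 F4/80low TAM array.

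The sequence before the transcription start is shown for these neighbours and for Mmp14, which moved in the same direction as Mmp13, because motifs for AP-1 and for the Ets factor PEA3 in such stretches are known to act on metalloproteinase genes. The stretches run from 110 bases before to 10 bases after the start (RefSeq, GRCm38.p6, plus strand). They lie at chr9:7272404-7272523 for Mmp13, chr9:7347264-7347383 for the second of the pair of Mmp12 starts, chr9:7558319-7558438 for Mmp8 and chr14:54431488-54431607 for Mmp14. Capitals mark matches on either strand: TGANTCA is the motif searched for AP-1, AGGAAG that for PEA3, GGGCGG that for Sp1 and TATAAA the TATA box.
Mmp13: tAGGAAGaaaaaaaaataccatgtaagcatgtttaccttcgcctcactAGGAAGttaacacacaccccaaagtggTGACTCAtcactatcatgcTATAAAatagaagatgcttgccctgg
Mmp12: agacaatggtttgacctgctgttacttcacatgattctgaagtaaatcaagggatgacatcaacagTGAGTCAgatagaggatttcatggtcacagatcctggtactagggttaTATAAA
Mmp8: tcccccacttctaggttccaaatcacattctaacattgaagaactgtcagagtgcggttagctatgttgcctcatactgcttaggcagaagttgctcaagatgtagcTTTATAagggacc
Mmp14: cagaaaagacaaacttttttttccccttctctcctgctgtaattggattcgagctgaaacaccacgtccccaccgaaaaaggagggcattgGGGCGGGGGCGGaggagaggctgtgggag

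An AP-1 match lies at base −35 of the Mmp13 stretch and at base −44 of the Mmp12 stretch shown, whereas the window of the other Mmp12 start holds no AP-1, Sp1 or TATA box match and has a PEA3 match at base −87. The windows of Mmp8 and Mmp14 hold no AP-1 match. Mmp13 and Mmp12 moved in opposite directions against PECs in F4/80high TAMs. Between the TAM subsets both were higher in F4/80high TAMs (log2 fold changes 2.34 and 2.15), calls that some alternatives below lost. The part of the motif in these values was not tested. In windows of 300 bases (250 before to 50 after the start), 7.81% of 32851 RefSeq promoters hold the AP-1 motif, 35.4% hold the PEA3 motif, 35.7% the Sp1 motif and 13.6% the TATA box. Windows were matched for 7 of the 10 genes, 8 windows in all, and a match in them is a description of letters and not of a bound site. None of the 8 windows held the NF-kB motif, which is in 1.63% of promoters. Of the TIMP windows, those of Timp1, Timp2 and Timp3 hold Sp1 matches and no AP-1 match.

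Of the collagenases, Mmp8, the enzyme stored in neutrophil granules, was below background in F4/80high TAMs alone. Mmp8 stood at −2.95, −4.38 and −4.15 in F4/80high TAMs, at 4.69, 2.64 and 3.00 in F4/80low TAMs, and 1.01, 2.60 and 2.66 in PECs. It was above background on none of the F4/80high TAM arrays and on every other array, and the F4/80low TAM and PEC arrays overlapped. The group means were −3.82 ± 0.77, 3.44 ± 1.10 and 2.09 ± 0.93 in that order (SD, n = 3 arrays each).

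Mmp8 was at least 19.8-fold lower in F4/80high TAMs than in PECs (limma adjusted p 6.71e-05) and at least 50.6-fold lower than in F4/80low TAMs (adjusted p 7.78e-05). Such a bound sets the bright group against the lowest level that counts as above background on the dim arrays, or against the dim level itself where that is higher. In F4/80low TAMs against PECs the difference was 1.35 on the log2 scale (SE 0.64, 95% interval −0.08 to 2.79, adjusted p 0.102), which missed the threshold of 0.05. It was 0.73 without F4/80low TAM replicate 1, 0.81 without PEC replicate 1 and 2.43 on slide 1 alone (adjusted p 0.0792), and it passed in the deposited value table (1.56, adjusted p 0.0180). The fitted difference of F4/80high TAMs from PECs was −2.43 under normexp background correction and −2.53 in the value table, and that of F4/80high from F4/80low TAMs −3.52 and −4.10, all past the threshold and smaller in size than the bounds above on the main scale. Without F4/80low TAM replicate 1 the fitted difference of F4/80high from F4/80low TAMs was −6.64. On slide 1 the fitted difference of F4/80high TAMs from PECs was −4.84.

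Of 11 neutrophil markers tested, 8 were lower and none higher in F4/80high than in F4/80low TAMs, the direction of Mmp8 and Mmp9. Among all genes tested, 14.0% were lower. The summed linear level of 11 neutrophil markers, in units of the 75th percentile, stood at 338, 229 and 272 in F4/80high TAMs, at 8375, 2303 and 1885 in F4/80low TAMs and 170, 156 and 124 in PECs. All 11 were above background on every F4/80low TAM array, Cxcr2 on no F4/80high TAM array, and Retnlg, Cxcr2, Ngp and Mpo on no PEC array. Csf3r had the largest value in the sums of F4/80high TAMs and PECs (means 7.80 and 6.99) and stood at 7.79 in F4/80low TAMs. Within F4/80low TAMs each marker was highest on replicate 1, such as Mpo at 7.06, 0.83 and −1.54. F4/80low TAM replicate 1 had the highest marker sum and the highest Mmp8 of its group, whereas its Mmp9 lay between those of the other two arrays. PECs had the lowest marker sums and Mmp8 levels of 1.01 to 2.66, all above those of F4/80high TAMs. The part of neutrophil RNA in the F4/80low values was not tested, and fewer cells of a type and less RNA per cell cannot be told apart in such bulk samples.

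**Figure D2:**
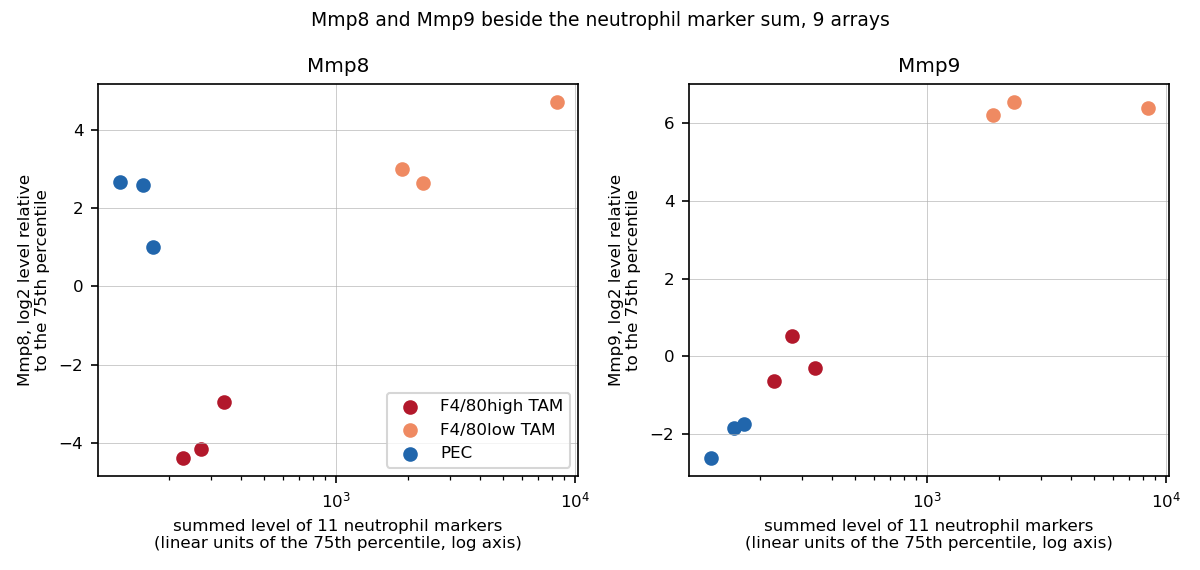
Level of Mmp8 (left) and Mmp9 (right) on each of the 9 arrays (log2, relative to the 75th percentile) against the summed level of 11 neutrophil markers on that array (log axis). F4/80low TAM arrays have marker sums of 1885 to 8375 and the highest Mmp9, and PEC arrays have sums of 124 to 170 with Mmp8 above that of F4/80high TAMs.

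Mmp13, the main interstitial collagenase of rodents, was highest in F4/80high TAMs. It stood at 5.54, 5.67 and 6.26 in F4/80high TAMs, at 2.86, 3.88 and 3.71 in F4/80low TAMs, and 0.33, 3.66 and 3.52 in PECs. All F4/80high TAM arrays lay above all others, and F4/80low TAM and PEC arrays overlapped. The low PEC value was that of replicate 1, the only PEC array on the slide that holds the TAM arrays.

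In F4/80high TAMs Mmp13 was higher than in PECs by 3.32 on the log2 scale (SE 0.77, adjusted p 0.00588), with values of 5.50 on slide 1 alone and 2.24 without PEC replicate 1, both past the threshold. In F4/80low TAMs the difference from PECs was 0.98 (SE 0.77, 95% interval −0.76 to 2.73, adjusted p 0.310). That value depended on a single array, at 3.16 on slide 1 alone (adjusted p 0.00401) and −0.10 without PEC replicate 1 (adjusted p 0.815). F4/80high TAMs were 5.07-fold above F4/80low TAMs (log2 fold change 2.34, SE 0.77, adjusted p 0.0444). This call was lost in 9 of 21 alternatives, the removal of any 1 TAM array among them. Over all 21 the log2 fold changes were 2.03 to 2.66. The SE took in the PEC arrays, whose SD was 1.88 against 0.38 in F4/80high and 0.55 in F4/80low TAMs. With only the 2 TAM groups in the limma fit it was 0.33 (adjusted p 0.00283), and without PEC replicate 1 it was 0.30 (adjusted p 0.00103).

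Of the gelatinases, Mmp9, which neutrophils, macrophages and dendritic cells release, marked the F4/80low subset. Its probe lies at chr2:164780620-164780679 (mm9, plus strand). Mmp9 stood at −0.31, −0.64 and 0.52 in F4/80high TAMs, at 6.39, 6.55 and 6.22 in F4/80low TAMs, and −1.73, −1.85 and −2.62 in PECs. The 3 groups did not overlap, and the order was F4/80low TAMs, F4/80high TAMs, PECs. The probe was above background on 2 of 3 PEC arrays and on all TAM arrays.

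The 10 printed copies of the Mmp9 probe had an SD of 0.145 to 0.216 within an F4/80high TAM array, 0.077 to 0.112 within an F4/80low TAM array and 0.353 to 0.379 within a PEC array. Against PECs, Mmp9 rose 3.79-fold in F4/80high TAMs (log2 fold change 1.92, SE 0.33, adjusted p 0.00104), and by a factor of 350 in F4/80low TAMs (log2 fold change 8.45, SE 0.33, adjusted p 3.64e-07). On slide 1 alone the log2 fold changes were 1.59 (adjusted p 0.0325) and 8.11 (adjusted p 0.000125). They were 0.81 and 6.16 under normexp background correction and 0.74 and 6.39 in the value table, all past the threshold, so the size of the folds moved with the processing. F4/80high TAMs were 92.3-fold below F4/80low TAMs for Mmp9, a difference of −6.53 on the log2 scale (SE 0.33, adjusted p 5.47e-06), which was −5.35 under normexp background correction and −5.65 in the value table.

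Mmp2, the other gelatinase, had a probe at chr8:95376840-95376899 (mm9, plus strand) that was above background on 1 F4/80high TAM array only. It stood at −0.97, −2.06 and −3.73 in F4/80high TAMs, at −4.20, −2.82 and −4.07 in F4/80low TAMs, and −4.31, −4.63 and −4.66 in PECs. The TAM subsets overlapped, and no fold or test is given for a gene that no group showed above background on all of its arrays.

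Mmp12, the macrophage elastase, was far higher in PECs than in either TAM subset. It stood at 0.77, 1.12 and 1.02 in F4/80high TAMs, at −2.38, −0.94 and −0.21 in F4/80low TAMs, and 6.60, 8.06 and 7.78 in PECs. No group overlapped another, and the probe was above background on 2 of 3 F4/80low TAM arrays and on all other arrays. Mmp12 fell 90.7-fold in F4/80high TAMs (log2 fold change −6.50, SE 0.54, adjusted p 1.43e-05), and by a factor of 403 in F4/80low TAMs (log2 fold change −8.65, SE 0.54, adjusted p 4.32e-06) against PECs. On slide 1 alone the log2 fold changes were −5.62 and −7.77. In F4/80low TAMs the value was −7.03 under normexp background correction, −7.23 in the value table, −7.97 with the probes averaged and −8.05 without F4/80low TAM replicate 1, and all of these passed.

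F4/80high TAMs carried 4.44 times the Mmp12 of F4/80low TAMs (log2 fold change 2.15, SE 0.54, adjusted p 0.0137). This call was lost when the probes of the gene were averaged (log2 fold change 1.51, adjusted p 0.0525) and under normexp background correction (0.94, adjusted p 0.0680). It was kept at 1.16 in the value table and at 1.55 without F4/80low TAM replicate 1. The dimmer Mmp12 probe was above background on all PEC arrays, at 2.22, 3.70 and 3.35, and on no TAM array. In the fit over 21196 probes it passed against PECs in both TAM subsets (adjusted p 9.64e-05 in F4/80high and 6.45e-05 in F4/80low TAMs) and not between them (adjusted p 0.415). In that fit 52.5% of probes passed in F4/80high TAMs against PECs, 50.9% in F4/80low TAMs against PECs and 32.0% between the TAM subsets.

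Mmp14, the membrane-type enzyme, was higher in both TAM subsets than in PECs. Its probe lies at chr14:55058775-55058834 (mm9, plus strand). Mmp14 stood at 4.71, 5.11 and 4.88 in F4/80high TAMs, at 3.41, 3.49 and 3.06 in F4/80low TAMs, and 1.76, −0.45 and 0.96 in PECs. The groups did not overlap, and the PEC arrays were the most scattered, with an SD of 1.12 against 0.20 and 0.23 in F4/80high and F4/80low TAMs.

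Mmp14 rose 17.6-fold in F4/80high TAMs (log2 fold change 4.14, SE 0.46, adjusted p 8.45e-05), and by a factor of 5.90 in F4/80low TAMs (2.56, SE 0.46, adjusted p 0.00174) against PECs. On slide 1 alone the log2 fold changes were 3.13 and 1.55, under normexp background correction 3.38 and 1.79, and 3.53 and 1.95 without PEC replicate 2, all past the threshold. In the value table F4/80high TAMs differed by 3.54. F4/80high TAMs were 2.99-fold above F4/80low TAMs (log2 fold change 1.58, SE 0.46, adjusted p 0.0278), a call lost in 9 of 22 alternatives, again with any 1 TAM array removed, with log2 fold changes of 1.29 to 1.90 over all 22. The SE of that difference also took in the scatter of the PEC arrays.

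Mmp19, an enzyme of basement membrane proteins, was lowest in F4/80low TAMs. Its probe lies at chr10:128236221-128236280 (mm9, plus strand). Mmp19 stood at −0.18, −0.05 and 0.63 in F4/80high TAMs, at −1.45, −1.94 and −1.53 in F4/80low TAMs, and 0.14, 1.03 and 1.10 in PECs. F4/80low TAM arrays lay below all others and 2 of the 3 were above background, and the arrays of F4/80high TAMs and PECs overlapped.

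Against PECs, Mmp19 was 5.26-fold lower in F4/80low TAMs (log2 fold change −2.40, SE 0.31, adjusted p 0.000273), with −1.78 on slide 1 alone (adjusted p 0.0154), and F4/80high TAMs were 3.42-fold above F4/80low TAMs (log2 fold change 1.77, SE 0.31, adjusted p 0.00242). Under normexp background correction these values were −1.03 and 0.62, and in the value table −1.16 and 0.81, all past the threshold. Against PECs F4/80high TAMs differed by −0.62 (SE 0.31, 95% interval −1.32 to 0.08, adjusted p 0.119). That difference passed without PEC replicate 1 (−0.93, adjusted p 0.0222) and was −0.01 on slide 1 alone (adjusted p 0.989).

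Timp1, the secreted inhibitor that binds the precursor of Mmp9, was highest in PECs and lowest in F4/80low TAMs. Its probe lies at chrX:20451802-20451861 (mm9, plus strand). Timp1 stood at 3.27, 3.03 and 2.75 in F4/80high TAMs, at −0.07, 1.16 and 0.72 in F4/80low TAMs, and 3.76, 5.65 and 5.61 in PECs. No group overlapped another, and the lowest PEC array was replicate 1. F4/80low TAMs, the group with the highest Mmp9 array values, thus held the lowest Timp1 array values.

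Against PECs, Timp1 fell 21.2-fold in F4/80low TAMs (log2 fold change −4.40, SE 0.50, adjusted p 0.000135), with −3.16 on slide 1 alone (adjusted p 0.00418). In F4/80high TAMs it was 3.97-fold lower than in PECs, a difference of −1.99 on the log2 scale (SE 0.50, adjusted p 0.00892), and this call was lost on slide 1 alone (−0.74, adjusted p 0.271). Without PEC replicate 1 the values were −2.61 in F4/80high TAMs and −5.03 in the F4/80low subset. F4/80high TAMs were 5.33-fold above F4/80low TAMs (log2 fold change 2.42, SE 0.50, adjusted p 0.00581).

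Timp2, which inhibits Mmp14 and also takes part in the activation of Mmp2 by it, was above background on every array and lower in both TAM subsets than in PECs. The probe used lies at chr11:118163146-118163205 (mm9, minus strand). Timp2 stood at 6.84, 6.10 and 6.01 in F4/80high TAMs, at 7.37, 6.88 and 7.30 in F4/80low TAMs, and 8.51, 8.11 and 8.43 in PECs. The groups did not overlap, although F4/80high TAM replicate 1 came within 0.05 of the lowest F4/80low TAM array.

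Timp2 fell 4.09-fold in F4/80high TAMs (log2 fold change −2.03, SE 0.25, adjusted p 0.000165), and by a factor of 2.25 in F4/80low TAMs (−1.17, SE 0.25, adjusted p 0.00456) against PECs, with −2.19 and −1.33 on slide 1 alone, both past the threshold. Between the TAM subsets the difference was −0.86 on the log2 scale (SE 0.25, adjusted p 0.0279), a call lost in 10 of 22 alternatives, without F4/80high TAM replicate 2 or 3 or F4/80low TAM replicate 1 or 3 among them (−0.71 to −0.80). The other Timp2 probe, whose coordinates span 6778 bases (chr11:118171964-118178741, mm9, minus strand), gave −1.06 in F4/80high TAMs (adjusted p 0.00128) and −0.74 in F4/80low TAMs (adjusted p 0.00975) against PECs and −0.32 (adjusted p 0.226) between the TAM subsets. Timp3, the inhibitor that binds to the matrix, was above background on no array (probe at chr10:85811696-85811755, mm9, plus strand), so no comparison is given.

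**Figure D3:**
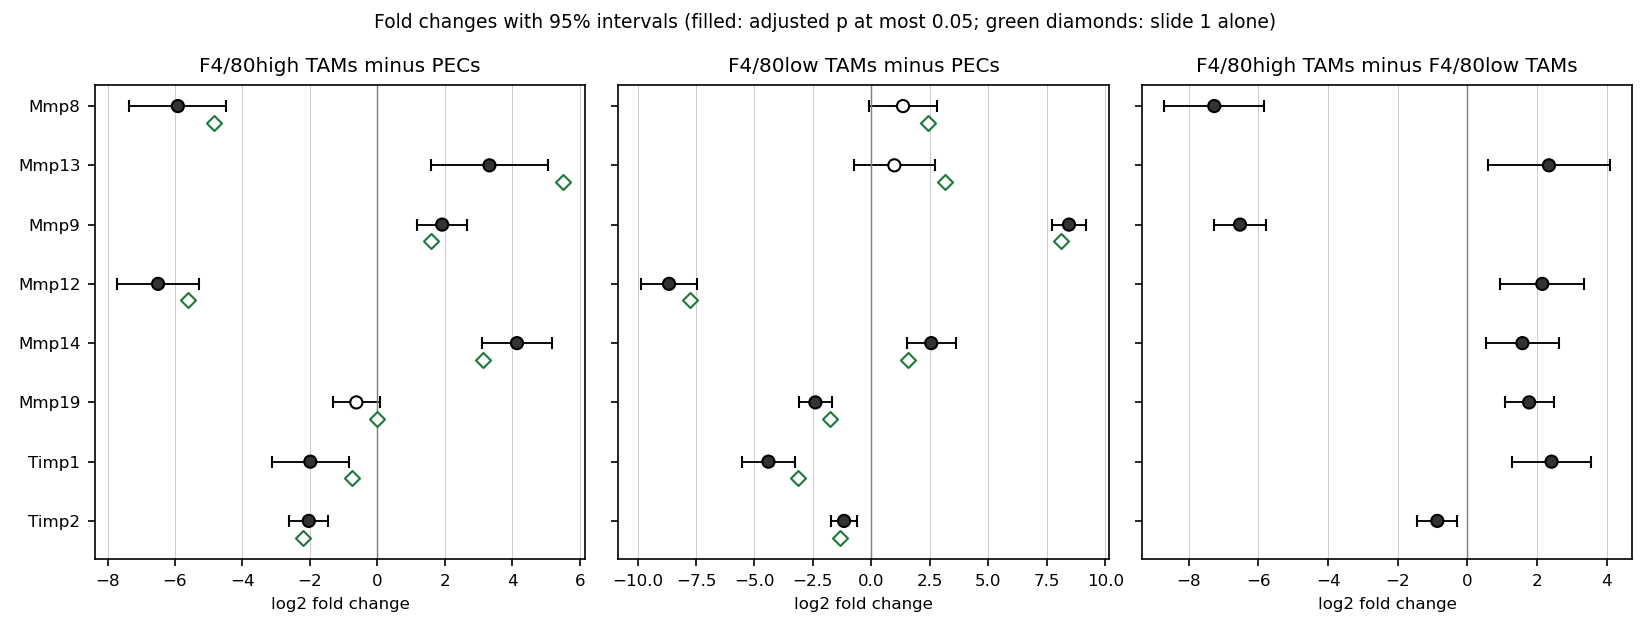
Log2 fold change (point) and 95% interval (bar) of the 8 tested genes in each comparison, with 3 arrays per group. Filled points passed at an adjusted p of 0.05, and green diamonds give the value on slide 1 alone. The fitted point of Mmp8 in F4/80high TAMs is not a bound, and the Timp1 diamond in F4/80high TAMs against PECs lies at −0.74, nearer to 0 than the fit with all PEC arrays.

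**Figure D4:**
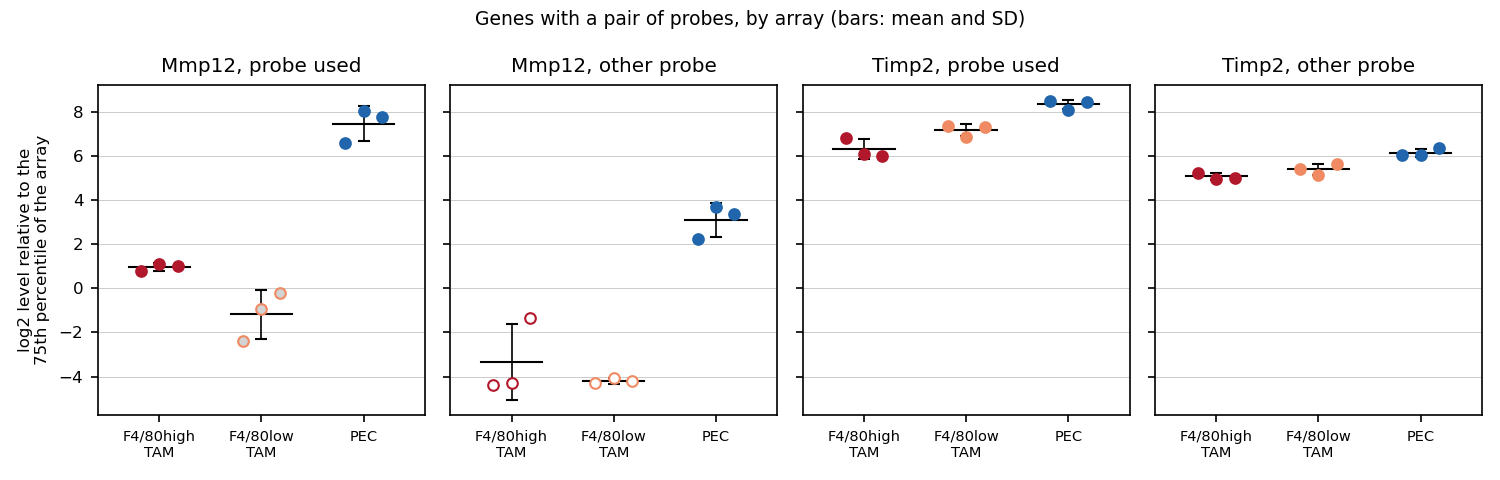
Level of each probe of Mmp12 and Timp2 on every array (log2, relative to the 75th percentile), with group mean and SD (n = 3 arrays). The dimmer Mmp12 probe was above background in PECs only (filled points, 2.22 to 3.70), and both Timp2 probes were highest in PECs.

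The genes of the set shared no common order of the groups. PECs had the highest mean for Mmp12, Mmp19, Timp1 and Timp2, F4/80high TAMs for Mmp13 and Mmp14, and F4/80low TAMs for Mmp8 and Mmp9. By the root mean square difference of centred log2 levels over 9 arrays, the gene most alike to Mmp8 was Itgb3 (0.88) and that to Mmp12 was Fabp4 (0.54), a fatty acid binding protein of macrophages. The nearest gene to Mmp9 was Rufy4 (0.37) and to Mmp13 Csprs (0.48). Mmp14 was nearest to Fgd2 (0.33), with Clec4a1 (0.35) next, and Mmp19 to Hmga1 (0.27). Timp1 was nearest to Folr2 (0.40) and C4b (0.41), and Timp2 to Haus8 and Naglu (0.15 each). Genes of the set were left out of this ranking, so it does not say how near they lie to one another. Under normexp background correction at most 1 of the 3 nearest genes of Mmp8, Mmp9, Mmp12, Mmp13, Mmp14, Mmp19 and Timp2 remained.

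Of 17 further metalloproteinase and inhibitor genes on the arrays, only Mmp10, Mmp17, Mmp25 and Mmp27 were bright enough to be tested. Mmp25, a membrane-anchored enzyme of leukocytes, was at least 11.1-fold higher in F4/80high TAMs and at least 5.65-fold higher in the F4/80low subset than in PECs (adjusted p 1.87e-05 and 8.15e-05). Mmp10, a stromelysin, was at least 5.79-fold and 2.96-fold higher in F4/80high TAMs and the F4/80low subset (adjusted p 0.00102 and 0.00686), and Mmp27 at least 6.87-fold and 6.46-fold lower in the same order (adjusted p 2.65e-06 and 3.25e-05). Against PECs, 3 were higher and 1 lower in F4/80high TAMs, beside 53.1% of all genes in either direction. In F4/80low TAMs 2 were higher and 1 lower, beside 52.0%. Between the subsets Mmp17 was higher in F4/80high TAMs (log2 fold change 1.02, SE 0.27, adjusted p 0.0182, with adjusted p up to 0.158 in 4 alternatives that lost it).

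Of 14 ADAM and ADAMTS proteases, related enzymes that shed surface proteins or cut proteoglycans, 9 were tested. Against PECs 1 was higher and 4 lower in F4/80high TAMs, beside 53.1% of all genes in either direction. In F4/80low TAMs 1 was higher and 6 lower, beside 52.0%. Adamts4, an aggrecanase, was the one that was higher: it stood at 2.43, 2.04 and 1.72 in F4/80high TAMs, at −2.17, −1.79 and −3.29 in F4/80low TAMs and −4.47, −4.77 and −4.79 in PECs. It was at least 24.3-fold higher in F4/80high TAMs than in PECs (adjusted p 1.35e-06) and higher by a log2 fold change of 4.48 than in F4/80low TAMs (SE 0.36, adjusted p 4.69e-05), where 1 of 3 arrays was above background. Between the subsets 5 were higher in F4/80high TAMs, among them Adam15 (log2 fold change 1.51, adjusted p 0.000852), and Adam19 was at least 5.36-fold lower (adjusted p 0.00108). Of all genes, 18.7% were higher and 14.0% lower in that comparison. Adamts1, another proteoglycan-cutting enzyme, was at least 2.07-fold lower in F4/80high TAMs than in PECs (adjusted p 0.00272) and at least 1.95-fold lower in the F4/80low subset (adjusted p 0.00675), calls that were lost on slide 1 alone (adjusted p 0.0908 and 0.171). Adam8 differed from PECs by −2.01 in F4/80high TAMs and by −2.21 in the F4/80low subset on the log2 scale.

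Of 23 genes whose products activate, anchor or clear metalloproteinases, 15 were tested. Against PECs 8 were higher and 4 lower in F4/80high TAMs, 5 higher and 2 lower in F4/80low TAMs, and 5 were higher and 3 lower in F4/80high than in F4/80low TAMs. The shares of all genes past the threshold were 53.1%, 52.0% and 32.7% in the same order. Itgb3, a subunit of an integrin that binds metalloproteinases at the cell surface, took the same order as Mmp8. It was at least 21.4-fold lower in F4/80high TAMs than in PECs (adjusted p 3.02e-06) and higher in F4/80low TAMs (log2 fold change 1.21, SE 0.31, adjusted p 0.00995).

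Plau, the plasminogen activator urokinase, and Lrp1, a receptor that takes up metalloproteinases, were lower than PECs in both subsets, Plau by −2.25 and −3.33 and Lrp1 by −2.48 and −3.54 in F4/80high and F4/80low TAMs. Klkb1, plasma prekallikrein, was at least 4.71-fold higher in F4/80high TAMs than in PECs (adjusted p 0.000799). Lcn2, whose product binds Mmp9 and protects it, was higher in F4/80low TAMs than in PECs by 8.67 (SE 1.02, adjusted p 0.000157). Lcn2 is also one of the neutrophil markers above and stood at 10.21, 6.37 and 5.41 in F4/80low TAMs. Furin, which cuts the precursor of Mmp14, was higher than PECs by 2.26 in F4/80high and 1.68 in F4/80low TAMs.

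**Figure D5:**
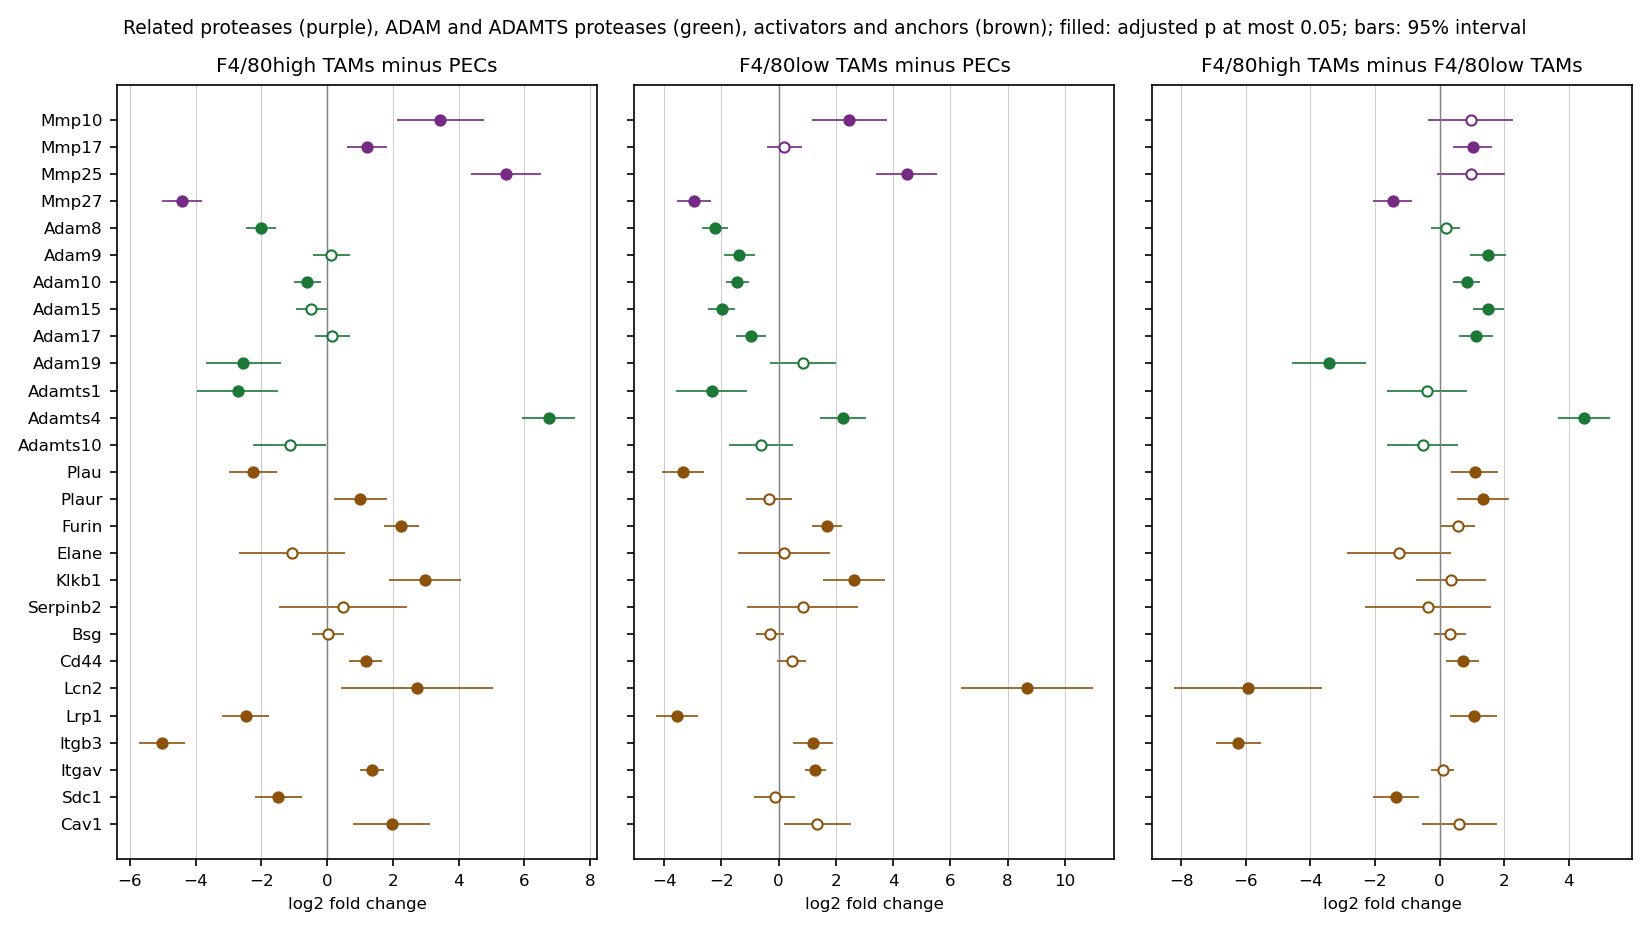
Log2 fold change and 95% interval of the tested genes, all but 1, of the other metalloproteinases (purple), the ADAM and ADAMTS proteases (green) and the activators, anchors and other inhibitors (brown), in each comparison with 3 arrays per group. Filled points passed at an adjusted p of 0.05, and points of genes given as bounds in the text are fitted values. Adamts4 lies to the right in F4/80high TAMs, and Lcn2 at 8.67 in F4/80low TAMs against PECs.

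Of 18 matrix proteins that metalloproteinases cut, 8 were tested. Against PECs 3 were higher and 2 lower in F4/80high TAMs, 2 higher and 2 lower in F4/80low TAMs, and 2 were higher and 2 lower in F4/80high than in F4/80low TAMs. Beside these stand 53.1%, 52.0% and 32.7% of all genes in either direction. Fn1, fibronectin, was higher in F4/80high than in F4/80low TAMs by 2.63 (SE 0.26, adjusted p 0.000140) and lower in F4/80low TAMs than in PECs by −2.19 (SE 0.26, adjusted p 0.000161) on the log2 scale. Vcan, the proteoglycan versican, was higher than PECs by 1.52 in F4/80high TAMs (adjusted p 0.00204, but 0.0800 on slide 1 alone) and by 2.58 in the F4/80low subset (adjusted p 0.000123). Col1a1, a chain of type I collagen, was at least 1.18-fold lower in F4/80high TAMs than in PECs (adjusted p 0.00271, but 0.372 under normexp background correction). Col3a1, a fibrillar collagen, was at least 2.93-fold higher in F4/80high TAMs and 2.99-fold higher in the F4/80low subset than in PECs, calls that were lost on slide 1 alone (adjusted p 0.116 and 0.119). Fibroblast markers summed to 8.41 to 11.6 in F4/80high TAMs, to 9.84 to 21.1 in F4/80low TAMs and 2.52 to 3.11 in PECs, with Lum, Pdgfra, Pdgfrb and Postn above background on no array. The largest mean was that of Fap in F4/80high TAMs (2.89) and of Thy1 in F4/80low TAMs (3.11). The part of fibroblasts in the collagen and protease values was not tested.

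Of 18 transcription factors known to act on metalloproteinase genes, 17 were tested. Against PECs 9 were higher and 2 lower in F4/80high TAMs, 8 higher and 2 lower in F4/80low TAMs, and 5 were higher and 6 lower in F4/80high than in F4/80low TAMs. Among all genes 53.1%, 52.0% and 32.7% passed in the same order. Nfkb1 was higher than PECs by 2.79 in F4/80high (SE 0.19, adjusted p 4.76e-06) and 1.67 in F4/80low TAMs, and the AP-1 subunit Junb by 2.48 and 1.34. Fosb, also of AP-1, was higher by 2.17 and 2.46 in the same order (adjusted p 0.00274 and 0.00159), calls lost on slide 1 alone (adjusted p 0.111 and 0.0717). Other AP-1 genes differed between the subsets: Fosl2 was lower in F4/80high than in F4/80low TAMs by −2.69 (SE 0.33, adjusted p 0.000426). Smad3, which carries TGF-beta signals, was lower in F4/80high than in F4/80low TAMs by −1.84 (SE 0.37, adjusted p 0.00504). Ets1, an Ets factor, was at least 9.10-fold higher in F4/80low TAMs than in PECs (adjusted p 2.94e-05) and lower in F4/80high than in F4/80low TAMs by −2.05 (SE 0.31, adjusted p 0.00117).

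Markers of other cell types also differed between the groups. T cell markers summed to 13.2 to 17.5 in F4/80high TAMs, to 20.0 to 39.8 in F4/80low TAMs and 7.69 to 12.7 in PECs, with Cd3d, Cd3g and Cd8a above background on no F4/80high TAM or PEC array and all 7 on every F4/80low TAM array. Of the 7, 5 were lower and none higher in F4/80high than in F4/80low TAMs, beside 14.0% of all genes lower. Cd4, the largest value in the F4/80high sums, had means of 3.47 in F4/80high and 2.85 in F4/80low TAMs. Cd28 had a higher mean in PECs (0.79) than in F4/80low TAMs (0.48). NK cell markers summed to 1.63 to 1.70 in F4/80high TAMs, to 9.50 to 19.5 in F4/80low TAMs and 1.08 to 1.50 in PECs. Dendritic cell markers summed to 35.4 to 43.5 in F4/80high TAMs, to 33.5 to 80.2 in F4/80low TAMs and 0.519 to 0.892 in PECs, where 6 of 7 were above background on no array. Ccr7 made up most of both TAM sums (means 5.20 in F4/80high and 5.43 in F4/80low TAMs). Zbtb46 was above background on every F4/80high and no F4/80low TAM array, and Flt3 the reverse. Of 4 mesothelial markers Msln alone was above background, on every F4/80low TAM array and no other, and they summed to 0.262 to 0.449 in F4/80high TAMs, to 1.75 to 2.39 in F4/80low TAMs and 0.153 to 0.212 in PECs. Mast cell and eosinophil markers summed to 1.17 to 1.56 in F4/80high TAMs, to 2.77 to 5.72 in F4/80low TAMs and to 5.65 to 8.71 in PECs, where Cpa3, Mcpt4, Kit, Epx and Prg2 were above background on no array. Siglecf alone was above background on every PEC array (mean 2.61), whereas Tpsb2 and Kit had their lowest means in PECs. Endothelial markers summed to 39.7 to 48.3 in F4/80high TAMs, to 29.1 to 47.5 in F4/80low TAMs and to 30.8 to 53.1 in PECs, with Tie1, Emcn and Cldn5 above background on no array. Of them only Kdr and Vwf were above background on all arrays of a group. None of 5 B cell markers was above background on all arrays of a group. The part of these cells in the metalloproteinase values was not tested.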

How the data were processed

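Each deposited scanner file gives spot intensity on a linear scale, after background subtraction and spatial correction by Agilent Feature Extraction 10.5.1.1, per the file headers. The deposited value table holds log2 values of 9703 probes with column medians of 8.26 to 8.35. Its scale was judged by its values, it is not centred on 0, its normalization is not given in the sources used here, and it served as an alternative. Here log2 of the processed intensity was taken, the 75th percentile of each array's non-control spots (intensities of 53.3 to 96.5) was subtracted, and outlier spots (103 to 307 per array, none saturated) were left out. Spots of a probe were averaged. Probes that some group showed well above background on each of its 3 arrays were kept (21196), and the brightest stood for its gene. Names came from the accession for 26413 probes, which renamed 3093, and from the file for 29268. Probe positions are those of the files (mm9), with no exon annotation.

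Differences between groups were tested with limma 3.58.1 (R 4.3.3). One model held the 9 arrays and gave 3 contrasts, with Benjamini-Hochberg adjustment within each contrast at 0.05, two-sided. The number of arrays limits the precision, with a median SE of 0.24 on the log2 scale. The fit was tested on simulated data. Residual correlations across genes were 0.23, 0.17 and 0.13 between same-numbered F4/80high and F4/80low TAM arrays, and −0.17 to 0.02 between differently numbered ones. Same-numbered TAM and PEC arrays gave −0.10 to 0.09, and differently numbered ones −0.11 to 0.13. The test was repeated with a replicate block. Other alternatives were normexp background correction, other scalings, filters and probe rules, slide as a block or alone, the value table and each array left out. The 10 genes and all gene lists were chosen with earlier results of these data known. List genes named are the 3 with the largest difference per list and comparison among those past the threshold. Furin was named after its values were seen. The values of 1 gene of the lists are not reported here, and it stays in the counts. Promoter sequences are from RefSeq.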

Additional observations from a re-analysis of the deposited data

Results flagged for a closer look

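All 8 tested genes of the set differed between the TAM subsets by a test of that difference, which is also the difference of their effects against PECs. The log2 fold change of F4/80high against F4/80low TAMs was −7.27 for Mmp8 (a fitted value, since F4/80high TAMs were below background) and −6.53 for Mmp9. It was 2.42 for Timp1, 2.34 for Mmp13, 2.15 for Mmp12, 1.77 for Mmp19, 1.58 for Mmp14 and −0.86 for Timp2. Mmp8 was lower in F4/80high TAMs than in PECs, whereas no difference from PECs was called in F4/80low TAMs (log2 fold change 1.35, arrays overlapping).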

How the results depend on the processing

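Among repeats of the tests of single genes of the set under the alternatives, 460 kept direction and side of the threshold, 32 lost the call, 4 gained it and 1 changed direction (Mmp13 in F4/80low TAMs against PECs, −0.10 without PEC replicate 1 and at most 1.56 without another array). For F4/80high TAMs against PECs, 7 genes of the set passed, 4 among the 4 testable when a probe had to be bright on all 9 arrays, and 7 to 8 without each array. For F4/80low TAMs against PECs 6 passed, 3 under that filter and 6 without each array. Between the subsets 8 passed, 5 with no filter, 4 under that filter and 5 to 8 without each array. Over all genes, 8748 passed in F4/80high TAMs against PECs (5653 with slide as a block, 4935 on slide 1, 7030 to 9036 without each array). In F4/80low TAMs 8553 passed against PECs (4944 with slide as a block, 4199 on slide 1, 14226 with no filter, 6625 to 8492 without each array), and 5386 passed between the subsets (3937 to 5541). The replicate block left 7, 6 and 8 genes of the set past the threshold, and 8 with the TAM arrays alone, a fit chosen after seeing the data (4893 genes in all). It changed no call of the set. Scaling moved the balance of all genes: between the subsets 3083 were higher and 2303 lower, but 4105 and 1286 with median centring, 2077 and 3564 with the percentile over spots bright on all 9 arrays. In F4/80low TAMs against PECs the split was 3711 higher and 4842 lower, but 1927 and 6813, and 5016 and 3587, under the same scalings. The median log2 fold change of all genes moved with them, to 0.40 and −0.17 between the subsets and −0.57 and 0.14 in F4/80low TAMs against PECs. The cause was not tested. Signal over background limits Mmp2, Timp3, Mmp8 in F4/80high TAMs, Mmp9 in PECs, and Mmp12 and Mmp19 in F4/80low TAMs.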
